A study of Nomascus leucogenys with 9 samples.

Results

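The TNF receptor and ligand family genes examined here were fixed as 10 human Ensembl identifiers: CD40 (ENSG00000101017), CD27 (ENSG00000139193), CD70 (ENSG00000125726), TNFRSF8 (ENSG00000120949), TNFRSF13B (ENSG00000240505), TNFRSF13C (ENSG00000159958), TNFRSF17 (ENSG00000048462), LTA (ENSG00000226979), LTB (ENSG00000227507) and FAS (ENSG00000026103). Of the 10, 9 had a row in the deposited table of 15356 rows, and LTA was absent from it. A further gene, LTB, had a row below the level filter used here, so 8 of the 10 genes were among the 12590 rows kept. The filter was a mean of at least 1 ppm, or part per 1000000 of a line's summed linear values.

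The study measured gene expression by RNA-seq in 9 EBV-transformed lymphocyte lines, which are lymphocytes immortalised in culture with Epstein-Barr virus. They came from northern white-cheeked gibbons (Nomascus leucogenys). All 9 lines form 1 group, with 1 library for each line. The labels name them Vok, Ricky, Phyllis, Nancy, Melouprey, Khao, China, Bobby and Asia, and each name is read here as 1 animal. The labels give no treatment, genotype, age or batch, and do not say whether a line is 1 clone. A difference between lines therefore has no replicate check, and animal, culture, transformation event and library cannot be told apart. In these bulk samples, fewer cells of a type and less RNA per cell cannot be told apart either.

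Members of the TNF superfamily are trimeric ligands on the cell surface or in solution, and their receptors pass the signal on through TRAF adaptors to NF-kB, or, for receptors with a death domain, to caspases. In B cells these receptors set survival, activation and the passage to memory and plasma cells. The EBV protein LMP1 is known to act like a constantly engaged CD40. No promoter or protein sequence of these genes was used here.

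The levels below are normalised values as deposited, on a log scale whose base is not stated. They were read as log2, so 1 unit is taken as a 2-fold difference. They are not divided by gene length, and levels of different genes are therefore not ranked against each other. The human identifiers were not tied to gibbon coordinates, and no genome build is named in the sources used here. Sequencing depth is unknown, because the columns had been brought to a common scale before deposit, with linear sums between 13728358 and 14059842.

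The range over the lines differed from gene to gene, from 1.29-fold in CD40 to 6.12-fold in CD27. CD27, CD70, TNFRSF13B, TNFRSF13C and FAS each spanned at least 2-fold between their lowest and highest line, that is 5 of the 8 genes kept (62.5%), against 26.4% of all kept rows. At least 4-fold was reached by CD27 alone, 1 of 8 genes (12.5%), against 6.18% of all kept rows. CD40, TNFRSF8 and TNFRSF17 stayed under 2-fold, TNFRSF17 closely so at 1.94-fold. The Asia line set much of this spread. Without it, 2 of the 8 genes (CD27 and TNFRSF13C) spanned 2-fold and 0 spanned 4-fold, while 22.1% and 4.12% of kept rows did.

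**Figure D1:**
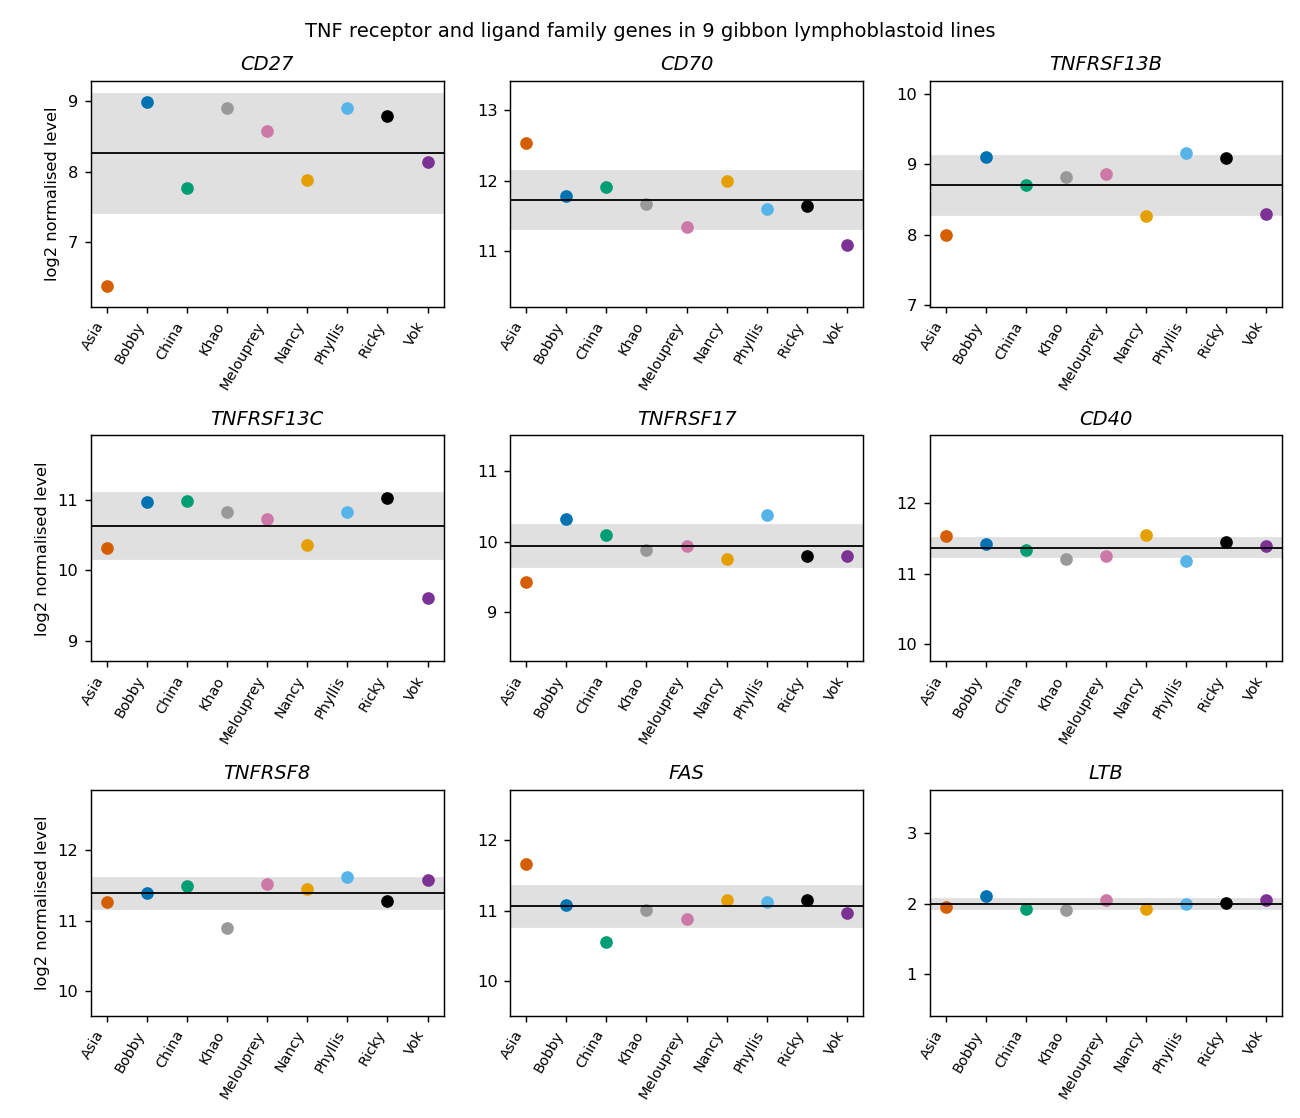
Each panel shows 1 gene, with the log2 normalised level on the vertical axis and the 9 lines along the horizontal axis. Points are single libraries, the horizontal line is the mean and the grey band is ± 1 SD (n = 9), and all panels span the same number of log2 units. CD27 lies lowest in Asia, at 6.38, CD70 and FAS are highest there, and CD40 lies within 0.37 log2 units in all lines.

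CD27 and CD70 are a receptor and its ligand. CD27 marks memory B cells and binds TRAF adaptors, and CD70 appears on activated lymphocytes. CD27 had the widest range of the family. Its level was 6.38 in Asia, 8.99 in Bobby, 7.76 in China, 8.90 in Khao, 8.58 in Melouprey, 7.89 in Nancy, 8.90 in Phyllis, 8.79 in Ricky and 8.14 in Vok (mean 8.26 ± 0.84, SD, n = 9). Asia was the low line, China, Nancy and Vok followed, and the other lines lay close together above them. The full range was 2.61 log2 units or 6.12-fold, from 5.97 to 36.3 ppm. It exceeded the range of 97.2% of the 500 kept rows nearest to CD27 in mean level, whose median range was 0.68. Without Asia the range was 1.23 log2 units.

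CD70 was high in the line in which CD27 was low. Its level was 12.54 in Asia, 11.78 in Bobby, 11.91 in China, 11.68 in Khao, 11.35 in Melouprey, 12.002 in Nancy, 11.60 in Phyllis, 11.64 in Ricky and 11.09 in Vok (mean 11.73 ± 0.41, SD, n = 9). Asia, Nancy and China were the 3 highest lines for the ligand and the 3 lowest for the receptor. Vok did not follow that inverse order, being the lowest line for CD70 and among the 4 lowest for CD27. The range of CD70 was 1.45 log2 units or 2.74-fold, wider than in 93.2% of the 500 rows nearest in level, and 0.91 log2 units without Asia.

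The balance of ligand and receptor within a line can be followed without regard to gene length, since length cancels between lines. The log2 difference CD70 minus CD27 was 6.16 in Asia, 4.15 in China and 4.12 in Nancy. It lay between 2.70 (Phyllis) and 2.95 (Vok) in the other 6 lines. The lines thus lay at 3 levels, a grouping noticed after the values were seen, of which the highest was Asia alone. The full span was 3.47 log2 units or 11.0-fold, and 2.74-fold without Asia.

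Across the 9 lines CD27 and CD70 had a Pearson r of -0.68 (exact two-sided permutation p = 0.054, Benjamini-Hochberg adjusted p = 0.30 over the 28 pairs of the 8 genes). Spearman's rho was -0.45 (exact permutation p = 0.23, adjusted p = 0.41). The inverse relation did not pass the threshold of 0.05 and rested on few lines. Without Asia and China, the lines farthest from the median of CD27, r was 0.074 (n = 7), and without Asia alone it was -0.18. Without Vok it was -0.88.

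**Figure D2:**
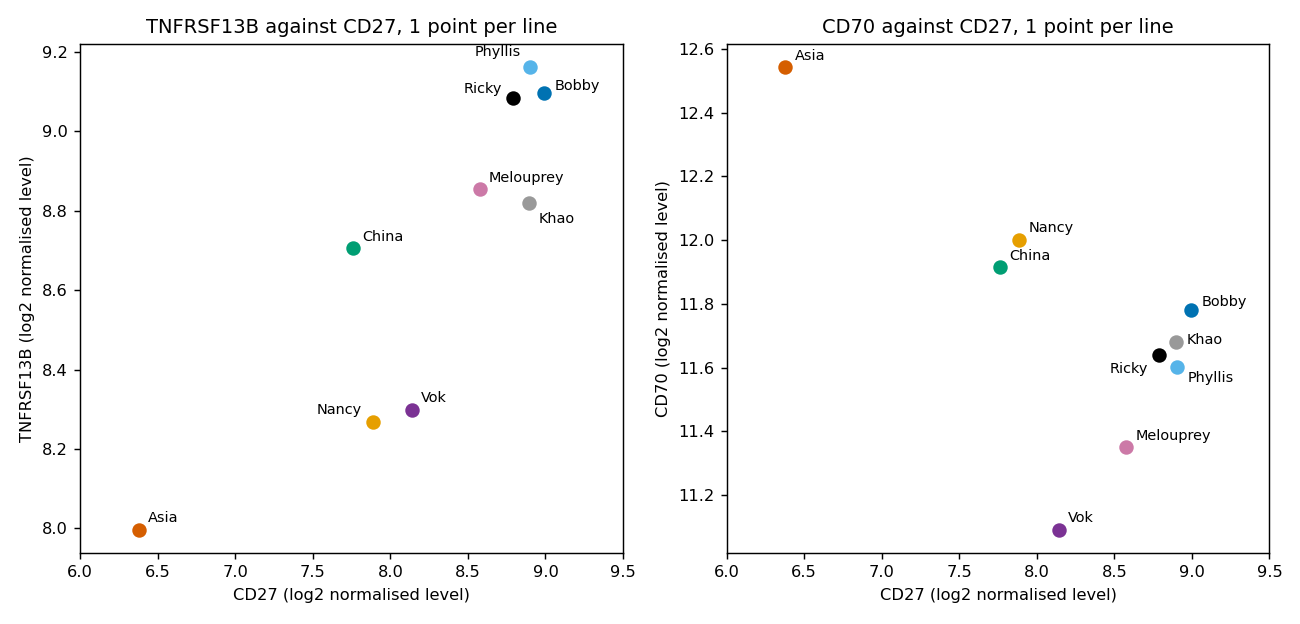
Log2 normalised levels of TNFRSF13B (left panel) and CD70 (right panel) on the vertical axes are plotted against those of CD27 on the horizontal axes, with 1 named point for each of the 9 lines. In the left panel the lines ascend together, with r = 0.87. In the right panel Asia lies alone at the upper left, at 6.38 for CD27 and 12.54 for CD70, and Vok lies lowest for CD70.

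TNFRSF13B, TNFRSF13C and TNFRSF17 encode TACI, the BAFF receptor and BCMA, receptors of B-lineage cells for BAFF, which TACI and BCMA share with a further ligand, APRIL. The BAFF receptor maintains mature B cells, TACI limits B cell expansion and serves class switching, and BCMA supports plasma cells. All 3 genes were present in every line, and each had Asia, Nancy and Vok as its 3 lowest lines, a set noticed after the values were seen. That set was the lowest 3 in 3 of the 8 genes kept (37.5%) and in 1.94% of all kept rows. Because it was picked from these same genes, the difference between the shares is not a test of it. In TNFRSF17 the order was close, with Vok and Ricky both at 9.79. CD27 did not share the set, as its 3 lowest lines were Asia, China and Nancy, followed by Vok.

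TNFRSF13B stood at 7.997 in Asia, 9.10 in Bobby, 8.71 in China, 8.82 in Khao, 8.85 in Melouprey, 8.27 in Nancy, 9.16 in Phyllis, 9.08 in Ricky and 8.30 in Vok (mean 8.70 ± 0.42, SD, n = 9). Asia, Nancy and Vok formed a lower group, and the other lines were at 8.71 or above. The range was 2.24-fold, wider than in 83.4% of the 500 rows nearest in level. Without Asia it was 0.89 log2 units.

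TNFRSF13C was low in 1 line above all. Its level was 10.32 in Asia, 10.97 in Bobby, 10.99 in China, 10.83 in Khao, 10.73 in Melouprey, 10.36 in Nancy, 10.83 in Phyllis, 11.02 in Ricky and 9.60 in Vok (mean 10.63 ± 0.46, SD, n = 9). The deviation from the median of the lines was -1.23 log2 units in Vok, -0.52 in Asia and -0.47 in Nancy. The range was 2.68-fold, wider than in 94.2% of the 500 rows nearest in level. It was 0.71 log2 units without Vok.

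TNFRSF17 varied less than TNFRSF13B and TNFRSF13C. It stood at 9.43 in Asia, 10.32 in Bobby, 10.10 in China, 9.89 in Khao, 9.93 in Melouprey, 9.75 in Nancy, 10.38 in Phyllis, 9.79 in Ricky and 9.79 in Vok (mean 9.93 ± 0.30, SD, n = 9). Phyllis and Bobby were high and Asia was low, over a range of 1.94-fold, wider than in 82.0% of the 500 rows nearest in level. Without Asia the range was 0.63 log2 units. The difference TNFRSF17 minus TNFRSF13C was 0.19 in Vok and between -1.23 (Ricky) and -0.45 (Phyllis) in the other lines. Vok thus had the highest value of this difference, whose zero point depends on the gene lengths and is not read here.

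**Figure D3:**
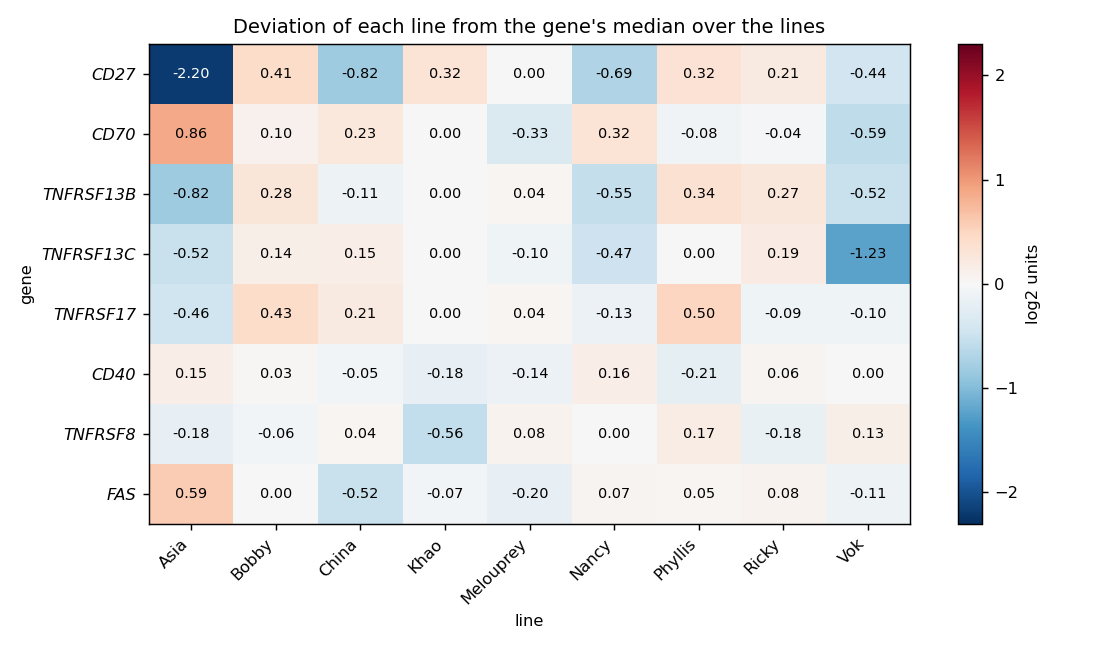
Colours and printed numbers give the deviation of each line (columns) from the gene's median over the 9 lines, in log2 units, for the 8 genes kept (rows). The lowest deviations are -2.20 for CD27 in Asia and -1.23 for TNFRSF13C in Vok, while those of CD40 lie between -0.21 and 0.16.

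TNFRSF13B was the gene most like CD27, TNFRSF13C and TNFRSF17 alike. With TNFRSF17 it had r = 0.80 (exact permutation p = 0.0098, adjusted p = 0.12) and rho = 0.85 (exact permutation p = 0.0061, adjusted p = 0.085). With TNFRSF13C it had r = 0.75 (exact permutation p = 0.013, adjusted p = 0.12) and rho = 0.67 (exact permutation p = 0.059, adjusted p = 0.33). For TNFRSF13C and TNFRSF17 r was 0.52 (exact permutation p = 0.15, adjusted p = 0.36) and rho was 0.62 (exact permutation p = 0.086, adjusted p = 0.34). The direction was positive in each, but none passed the adjusted threshold. With the pair of lines farthest from the median of the first gene left out (n = 7), r was 0.58 for TNFRSF13B with TNFRSF17, 0.83 for TNFRSF13B with TNFRSF13C and 0.42 for TNFRSF13C with TNFRSF17.

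The closest pair was CD27 and TNFRSF13B, singled out after the values were seen. Their r was 0.87 (exact permutation p = 0.0019, adjusted p = 0.052, n = 9) and rho was 0.88 (exact permutation p = 0.0031, adjusted p = 0.085). Without Asia and China r was 0.94 (n = 7), and with any 1 line left out it lay between 0.80 (without Asia) and 0.91. Among the 12589 other kept rows, TNFRSF13B had the 142nd highest r with CD27, and CD27 had the 53rd highest r with TNFRSF13B. Of the 28 pairs, 4 were below an unadjusted p of 0.05 by Pearson's r and 3 by Spearman's rho, and 0 passed after adjustment by either. An r of at least 0.8 in size was found in 1 of the 28 pairs (3.57%), against 3.69% of the pairs that the 8 genes form with all other kept rows. The difference between these shares was not tested, and TNFRSF13B with TNFRSF17 lay just under that bound at 0.797 and just over it after median-centring at 0.803.

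CD40 and TNFRSF8 (CD30) are receptors that use TRAF adaptors. CD40 receives help from T cells through the CD40 ligand, and CD30 marks activated lymphocytes. CD40 was the most even gene of the 8. It stood at 11.53 in Asia, 11.42 in Bobby, 11.33 in China, 11.20 in Khao, 11.24 in Melouprey, 11.54 in Nancy, 11.17 in Phyllis, 11.45 in Ricky and 11.39 in Vok (mean 11.36 ± 0.14, SD, n = 9). No line stood apart, and the range was 1.29-fold, wider than in only 20.4% of the 500 rows nearest in level. CD40 had negative correlations with CD27, TNFRSF13B, TNFRSF13C and TNFRSF17 (r between -0.60 and -0.33), with adjusted exact permutation p between 0.31 and 0.54 (n = 9). Its correlations with CD70 and FAS were positive (r = 0.53 and 0.49, adjusted exact permutation p = 0.36 and 0.39), and with TNFRSF8 r was 0.011. For CD40 and TNFRSF8, rho was -0.38, and r lay between -0.73 and 0.28 with any 1 line left out. Without Khao and Phyllis r was -0.61 (n = 7). These pairs were picked after their values were seen.

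TNFRSF8 was even in all lines but Khao. It stood at 11.27 in Asia, 11.39 in Bobby, 11.49 in China, 10.89 in Khao, 11.52 in Melouprey, 11.45 in Nancy, 11.62 in Phyllis, 11.27 in Ricky and 11.58 in Vok (mean 11.39 ± 0.22, SD, n = 9). The range was 1.66-fold, and 0.35 log2 units without Khao. Its range was wider than in 67.6% of the 500 rows nearest in level.

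**Figure D4:**
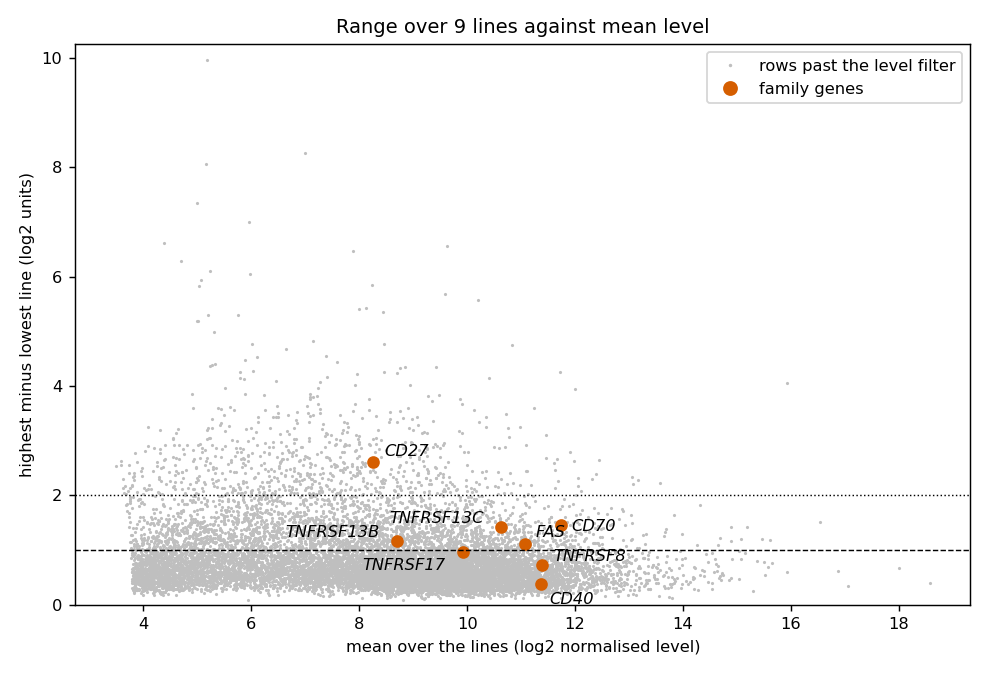
The range over the 9 lines (highest minus lowest, log2 units) is plotted against the mean log2 normalised level, with grey points for the kept rows and orange points for the 8 family genes. The dashed line marks a 2-fold and the dotted line a 4-fold range. CD27 is the family gene above the dotted line, at 2.61, and CD40 is the lowest family gene, at 0.37.

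FAS encodes the death receptor CD95, which recruits caspases through FADD. Its level was 11.67 in Asia, 11.08 in Bobby, 10.56 in China, 11.01 in Khao, 10.88 in Melouprey, 11.15 in Nancy, 11.12 in Phyllis, 11.16 in Ricky and 10.97 in Vok (mean 11.07 ± 0.29, SD, n = 9). Asia was high and China low, and the other lines fell between 10.88 and 11.16. The range was 2.15-fold, wider than in 85.8% of the 500 rows nearest in level, but 0.60 log2 units without Asia and 0.79 without China. In the RefSeq annotation of the gibbon assembly Asia_NLE_v1, FAS overlaps ACTA2, a smooth muscle actin gene, and TNFRSF8 overlaps an snRNA gene. Reads in an overlap cannot be assigned to either gene with certainty where strand was not used. Whether the deposited values rest on this annotation is not known.

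LTA and LTB encode lymphotoxin alpha and beta, which together form a membrane ligand of the lymphotoxin beta receptor. The symbols of all 10 genes, LTA included, occur once each in that RefSeq annotation, where LTA, TNF and LTB follow one another. LTA had no row under its identifier. LTB had a row near the bottom of the table, at 1.95 in Asia, 2.11 in Bobby, 1.93 in China, 1.91 in Khao, 2.05 in Melouprey, 1.92 in Nancy, 1.998 in Phyllis, 2.01 in Ricky and 2.06 in Vok (mean 1.99 ± 0.071, SD, n = 9). That equals 0.29 ± 0.015 ppm, and only 1.21% of rows had a lower mean on this scale, which is not divided by gene length. Its narrow range of 0.20 log2 units cannot be read as even expression: the 2766 rows below the filter had a median range of 0.39 and the rows kept one of 0.68. Whether the missing LTA row and the low LTB values reflect expression or the annotation behind the deposited values was not tested.

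How often a line was an extreme for the family is given beside its share over all kept rows. Asia was the highest or lowest line in 5 of the 8 genes (62.5%), highest for CD70 and FAS and lowest for CD27, TNFRSF13B and TNFRSF17. Over all kept rows it was an extreme in 36.6%, so it was often one outside these genes too. The median absolute deviation of Asia from the median of the lines was 0.55 log2 units in the 8 genes. Over all kept rows it was 0.20, and the difference was not tested. The value in the 8 genes also exceeded that over all kept rows in Bobby, China, Nancy, Phyllis, Ricky and Vok. It did not in Khao or Melouprey. Phyllis was an extreme in 4 of the 8 genes, against 16.0% of kept rows, being highest for TNFRSF8, TNFRSF13B and TNFRSF17 and lowest for CD40. Vok was an extreme in 2 of the 8 genes, against 38.8% of kept rows, the largest share of any line. Melouprey was an extreme in 0 of the 8 genes, against 18.8% of kept rows. In a set of 8 genes the counts of Vok and Melouprey lie near those shares and are not read as a difference. The lines named here were picked after the values were seen, and no difference from the shares was tested. A single outlying line by Dixon's gap criterion was found in 3 of the 8 genes (37.5%), against 10.1% of kept rows.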

How the data were processed

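RNA-seq libraries of 9 gibbon lymphoblastoid lines were used as 9 samples of 1 group. Per the labels' protocols, total RNA was purified with an RNeasy kit and libraries followed a TruSeq protocol. The submitters' processing notes name Trimmomatic, STAR, edgeR and DESeq2 without versions or roles. How reads were aligned and values normalised, and the genome build, were not given in the sources used here. The deposited values were on a log scale whose base is not stated, and were read as log2 normalised expression. They ran from 0.71 to 18.66, with no counts from which depth could be taken. If the authors shrank low values, ranges of low rows are understated.

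Gene names of the 10 genes came with their identifiers. No other identifier could be matched to a symbol, since 0 of 33914 RefSeq entries carry an Ensembl identifier, so the lists of other family genes and cell type markers, and levels per kilobase, were not used. The genes and lists were chosen with earlier results of these data known. All 10 genes are named. Gene pairs named in the text are receptor with ligand and receptors that share ligands, and any other is marked as chosen afterwards.

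Ranges and SDs were taken over the lines. Correlations used exact permutation over all 362880 orders of the lines, with Benjamini-Hochberg adjustment over 28 pairs, fewer than planned because LTA and LTB could not enter. Python 3.11.15, numpy 2.4.6 and pandas 2.3.3 were used, and the code was tested on simulated data. Unused per-sample columns numbered 0.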

Additional observations from a re-analysis of the deposited data

Results flagged for a closer look

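A total of 13 sets of 9 values were checked for a line far from the others, 9 of them levels of single genes and 4 of them differences between a pair of genes, and 4 sets gave one. Chance marks about 1 in 20 independent sets of normal values, while the same criterion marked 10.1% of all kept rows. The sets of CD27 and of CD70 minus CD27 share values. CD27 was marked for its level of 6.38 in Asia, where the next line was China at 7.76. The difference CD70 minus CD27 was marked for Asia, at 6.16. TNFRSF8 was marked for its level of 10.89 in Khao, below 11.27 in Asia. TNFRSF13C was marked for its level of 9.60 in Vok, below 10.32 in Asia. The part of library quality, culture or animal in these values was not tested.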

How the results depend on the processing

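The number of genes spanning 2-fold was 5 and that spanning 4-fold was 1 after median-centring, quantile normalisation and a pseudocount of 1 on the linear scale. With 1 line left out they lay between 2 and 5 and between 0 and 1, and both lowest values came without Asia. Over all kept rows the number spanning 4-fold lay between 517 (without Asia) and 766 with a line left out, against 778 with all lines. The number of pairs past an adjusted exact permutation p of 0.05 was 0 as deposited and 1 after median-centring (CD27 and TNFRSF13B, adjusted p = 0.0496). With a line left out it lay between 0 and 2. It was 1 without China (CD27 and TNFRSF13B, adjusted p = 0.033) and 2 without Ricky, where TNFRSF13B and TNFRSF17 passed too (r = 0.93, adjusted p = 0.026). The cause was not tested. None of the 5 named correlations changed sign under any of these settings, which did not include leaving out 2 lines at once. Without Asia and China the sign for CD27 and CD70 did change, from r = -0.68 to 0.074 (n = 7). The settings for the correlation of CD27 and TNFRSF13B, and for the genes whose lowest lines were Asia, Nancy and Vok (3 under each of the scalings above), were chosen after seeing the data. The order of the genes per kilobase was not run, because no coding lengths were at hand. No paired analysis was possible because all lines belong to 1 group. Without known depth, counting error in low rows could not be separated.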
